A study of Mus musculus with 20 samples.

Results

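The genes described here are 48 genes of the synaptic vesicle and of the machinery that releases its content, out of 35580 genes for which counts were summed. They were chosen by name, from their known roles, with earlier results of these data known. By role, 16 were grouped as calcium sensors (14 synaptotagmins, *Doc2a* and *Doc2b*) and 8 as other vesicle proteins. The rest are 9 genes of the SNARE machinery, 3 Rab3 genes, 9 genes of the active zone and 3 genes of endocytosis. The calcium sensor group follows the gene families, and whether each member binds calcium was not checked. All 48 passed the filter on low counts in every comparison, and the smallest summed count of any of them in any sample was 17.

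The libraries come from hippocampus and neocortex of WT and miR-324-null mice, with 5 samples in each of the 4 groups and 20 samples in all. The mice were C57BL/6J by label, aged 13.5 months, and male by the results text of the paper. The miR-324-null mice carry a CRISPR/Cas9 deletion of *Mir324* in every cell of the body, and the WT mice descend from the same founders, which were of mixed C57BL/6 and CBA/Ca background and were bred onto C57BL/6J before separate WT and null lines were made. Each library holds RNA from a whole piece of tissue, so fewer cells of a type and less RNA per cell cannot be told apart in any value below. *Mir324* itself was not analysed here.

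Neurotransmitter is stored in synaptic vesicles, which dock at the active zone of the nerve terminal, are primed there and fuse with the membrane when calcium enters. Fusion is driven by the SNARE proteins syntaxin, SNAP-25 and VAMP (synaptobrevin), is held and triggered by complexins and synaptotagmins, and is organised by RIM, Munc13 and the large scaffolds of the active zone. The vesicle membrane is then taken back by endocytosis. A microRNA lowers the level or translation of mRNAs that pair with its seed, bases 2 to 8 of the mature strand, and pairing sites in 3′UTRs are the most common.

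*Mir324* lies on chromosome 11 of GRCm38, and both of its arms are used. They are printed to show the seed, in capitals, that was searched for in the release genes (sequences from RefSeq, with the arms at chr11:70012060-70012082 and chr11:70012095-70012114 on the plus strand).
miR-324-5p: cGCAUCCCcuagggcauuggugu
miR-324-3p: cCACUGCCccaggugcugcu

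A match to the miR-324-5p seed (GGGATGC on the strand of the transcript) was found in the annotated 3′UTR of 7 of the 48 genes (14.6%), against 9.52% of the 14290 genes with a 3′UTR that were tested in the hippocampus. A match to the miR-324-3p seed (GGCAGTG) was found in 15 of the 48 (31.2%), against 17.12% of the same genes. The paper cites reports of another form of miR-324-3p with a different seed, and that seed was not searched for. The 3′UTRs searched were longer in the release genes, with a median of 2367 bases against 1241 for all these genes. The part of this length in the shares was not tested, and a match is a description that marks no site as used. The 7 sites for miR-324-5p are printed with their flanking bases, in the strand of the transcript, because the genotype comparison below returns to these genes. The capitals mark the seed match and, where present, the A that follows it.
Syt2: gacctgttaagGGGATGCttgggttttag
Syt9: gttgcacccgaGGGATGCAgcattacagc
Doc2a: ttacatggggtGGGATGCccctgccccac
Cplx2: ccctcccatggGGGATGCctcccggccaa
Rims3: ctacactgggtGGGATGCcattccagaag
Unc13a: attcaaccctgGGGATGCAcatggtggaa
Dnm1: cctgcagcaagGGGATGCtgcagcagcag

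The match in *Rims3* lies at chr4:120893791-120893797 on the plus strand of GRCm38 and that in *Unc13a* at chr8:71626609-71626615 on the minus strand, both in the 3′UTR. The 3′UTR of *Rims3* also holds 3 matches to the miR-324-3p seed. *Syt2* and *Cplx2* hold 1 match for each arm. The transcripts with the miR-324-5p match carried 98.7% of the TPM of *Rims3*, 91.7% of *Syt2* and 100% of *Cplx2*, but 60.2% of *Dnm1*, 50.2% of *Syt9*, 49.1% of *Unc13a* and 33.1% of *Doc2a*. Only transcripts annotated as protein coding were searched, so the shares under 100% are lower limits.

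Levels are first compared in TPM, which is scaled to transcript length and so allows one gene to be set against another. Together the 48 genes made up between 1.01% and 1.262% of all TPM in a sample, and the 5 highest of them held between 46.39% and 51.93% of that. The highest was *Snap25*, the SNARE protein of the plasma membrane, at 1760 ± 72.05 TPM in WT hippocampus and 2870 ± 163 TPM in WT neocortex (SD, n = 5). *Vamp2*, *Syp* and *Dnm1* followed in every group, and their means lay close together. In WT hippocampus *Vamp2*, the main vesicular SNARE protein of the forebrain, stood at 915.9 ± 27.61 TPM. *Syp* (synaptophysin, an abundant membrane protein of the vesicle) stood there at 849.4 ± 29.83 TPM and *Dnm1* (dynamin-1, which cuts vesicles from the membrane) at 826.8 ± 50.17 TPM, so that *Syp* and *Dnm1* differed by less than 1 SD. *Rab3a*, the small GTPase bound to most synaptic vesicles, was the fifth in each of the 4 groups.

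At the other end, by the mean over the 4 groups, were *Syt10*, *Syt9*, *Unc13c*, *Syn3*, *Syt6* and *Sv2c*, whose group means lay between 1.943 TPM (*Syt10* in WT neocortex) and 11.87 TPM (*Syt6* in miR-324-null neocortex). The order of the roles followed a few genes. The SNARE machinery summed to 4585 ± 85.93 TPM in WT hippocampus and 5963 ± 199.4 TPM in WT neocortex, and the active zone genes to 422.2 ± 24.16 and 574.9 ± 38.93 TPM, and for both roles all 5 WT neocortex samples were above all 5 WT hippocampus samples. The 8 vesicle proteins summed to 1986 ± 83.25 TPM in WT hippocampus and 1966 ± 83.43 TPM in WT neocortex (SD, n = 5), which overlapped.

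**Figure D1:**
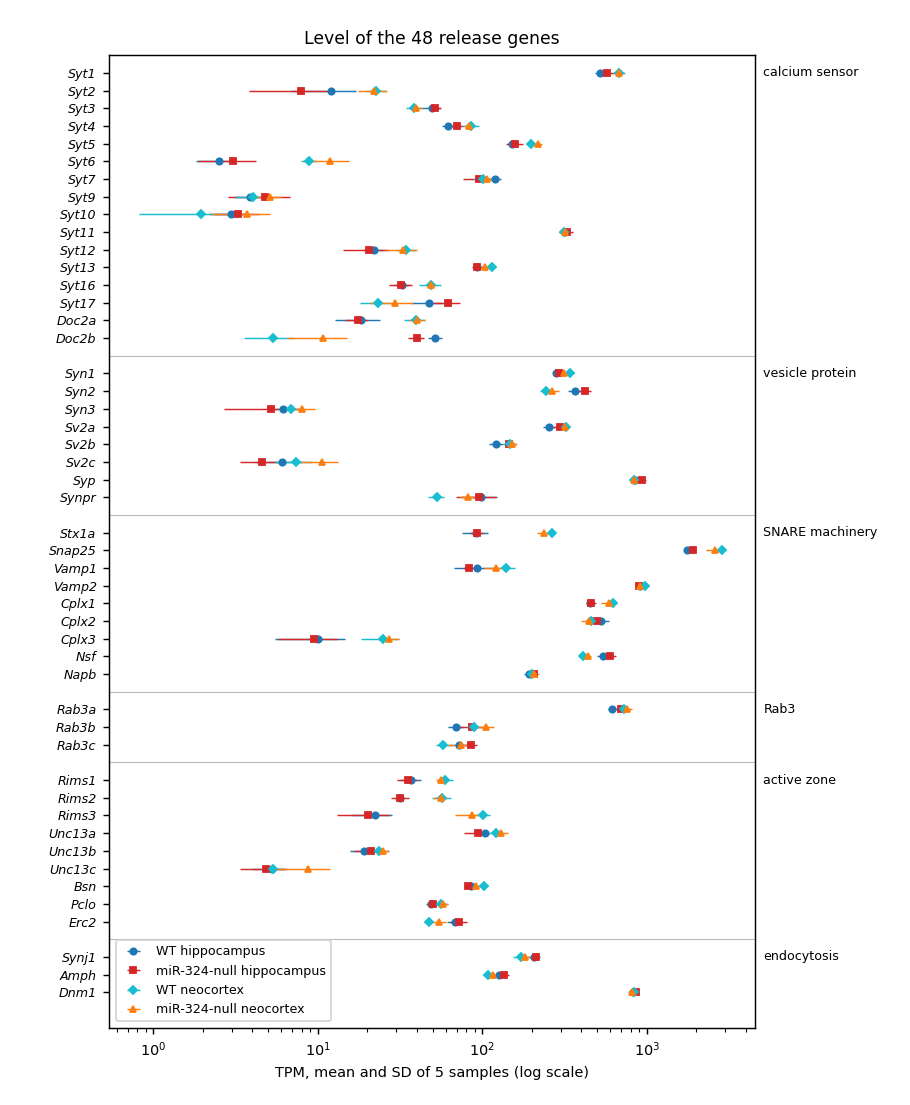
Level of each of the 48 genes in the 4 groups, as mean and SD of 5 samples, in TPM on a log axis and ordered by role. *Snap25* stood highest in every group, and the wide gaps between tissues belong to a few genes, such as *Doc2b*, *Syt6*, *Stx1a* and *Rims3*.

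Within a group the samples varied little for most of the genes. The coefficient of variation of the TPM had a median over the 48 genes of 9.75% in WT hippocampus, 11.42% in miR-324-null hippocampus, 9.94% in WT neocortex and 9.96% in miR-324-null neocortex. *Vamp2*, *Dnm1* and *Syn1* stayed under 7% in all 4 groups. *Syt10* reached 58.06% in WT neocortex, *Syt2* 51.77% and *Syn3* 47.95% in miR-324-null hippocampus, and *Cplx3* 45.04% in WT hippocampus.

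The samples of miR-324-null hippocampus split in several of the genes with low values there. *Syt2*, one of the fast calcium sensors, stood at 18.91, 17.13, 48.09, 41.66 and 21.36 CPM in replicates 1 to 5, where CPM is counts scaled by library size with TMM. *Rims3* stood at 66.03, 53.06, 108.0, 100.8 and 60.89 CPM in the same samples, and *Cplx3* at 6.51, 5.581, 11.73, 9.707 and 4.34 CPM. Replicates 3 and 4 were the highest for all 3 of these genes, and they were also the highest of the group in *Sv2c* (29.2 and 34.05 CPM) and *Unc13c* (31.86 and 35.17 CPM). The summed level of 10 genes of the neocortical layers was 453.1 and 423.5 TPM in replicates 3 and 4 and between 348.4 and 369.4 TPM in the other 3. *Syt17* went the other way, with 67.11 and 75.34 CPM in replicates 3 and 4 against 89.44 to 122 CPM in the others. *Syt6* was also lowest in replicates 3 and 4, and *Stx1a* did not split in this way. Genes of the hippocampal fields summed to 307.3 and 317 TPM in replicates 3 and 4. In replicates 1, 2 and 5 they summed to 248.6, 271.9 and 336.6 TPM. Of the layer genes, *Tshz2* alone ran from 4.34 to 45.51 TPM in this group. The part of the layer genes in these values was not tested.

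The first comparison sets the hippocampus against the neocortex, in WT and in the miR-324-null samples apart. Most release genes differed between the tissues in WT samples, and more were lower than higher in the hippocampus. Of the 48 genes, 37 were called, at a p of at most 0.05 from edgeR's quasi-likelihood test after Benjamini-Hochberg adjustment across every gene tested, against 36.1% of the 14894 genes tested. Of these, 12 were higher and 25 lower in the hippocampus, where 18.1% of all genes were higher and 18% lower. The median log2 fold change, hippocampus over neocortex, was -0.24 over the 48 genes and -0.00 over all genes tested. In 27 of the 48 genes the 5 samples of one tissue did not overlap the 5 of the other in CPM, against 26.4% of all genes. The shares over all genes, here and below, are not matched to the 48 genes for level. The part of level in these counts was not tested.

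In the miR-324-null samples, which are other libraries, 31 of the 48 genes were called, 11 higher and 20 lower in the hippocampus, against 27.4% of 15033 genes (13.8% higher and 13.6% lower). The tissues did not overlap in 25 of the 48, against 20.9% of all genes. The median log2 fold change was -0.11 over the 48 genes and 0.01 over all genes tested. Called the same way in both genotypes were 28 of the 48 genes (10 higher and 18 lower), or 58.3%, against 22.6% of the 14763 genes tested in both. No gene of the 48 was called in opposite directions, and 41 had the same sign in both. Markers of interneurons and astrocytes also differed between the tissues, and their values are given at the end of this comparison. In the miR-324-null neocortex the markers of other regions moved too, and those values are given with the genotype comparison below.

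**Figure D2:**
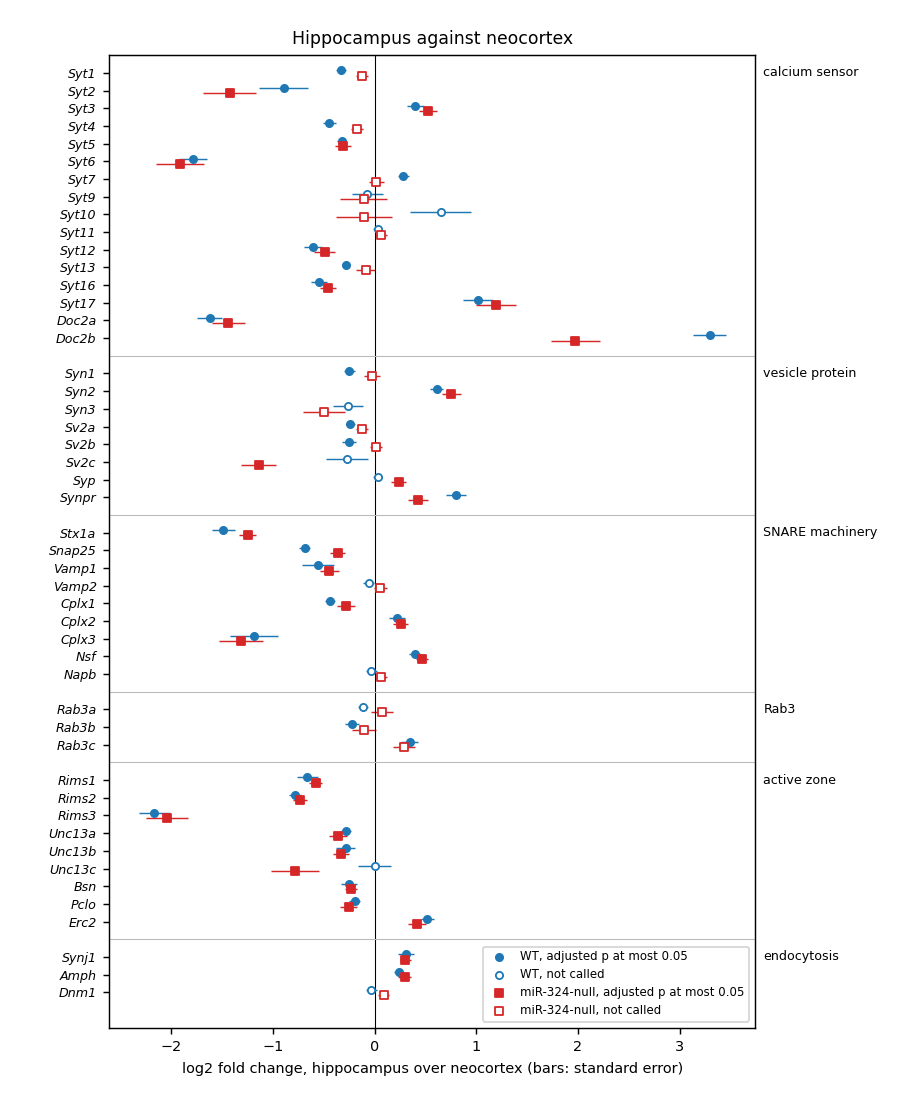
Log2 fold change of each gene, hippocampus over neocortex, in WT (circles) and miR-324-null samples (squares), with the standard error, ordered by role. Filled symbols have an adjusted p of at most 0.05 in edgeR's test, and 7 genes lie beyond 1 in size with filled symbols in both genotypes.

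Among the synaptotagmin and Doc2 genes grouped as calcium sensors, 4 were higher and 9 lower in WT hippocampus and 3 did not pass. In the miR-324-null samples 3 were higher, 6 lower and 7 did not pass. This role held the gene with the widest difference between the tissues in WT, *Doc2b*, a soluble sensor with paired C2 domains and high affinity for calcium that acts in spontaneous and asynchronous release. It lies on chromosome 11 of GRCm38, from 75768966 to 75796049. *Doc2b* stood at 127.3, 143.9, 139.4, 146.9 and 122.7 CPM in WT hippocampus and at 15.87, 14.83, 19.07, 7.861 and 11.12 CPM in WT neocortex. In miR-324-null samples it stood at 98.11, 99.01, 103.2, 98.04 and 123.3 CPM in hippocampus and at 39.07, 20.86, 27.19, 34.79 and 11.95 CPM in the neocortex. Every hippocampus sample was above every neocortex sample in both genotypes, and the gap was narrower in the miR-324-null samples, a difference whose test is given with the genotype comparison. The log2 fold change was 3.29 (standard error, SE, 0.16, adjusted p = 7.21e-09 in edgeR) in WT, or 9.80-fold, and 1.97 (SE 0.24, adjusted p = 6.41e-05) in the miR-324-null samples, or 3.92-fold. In the miR-324-null samples *Rims3* was slightly wider in size, at -2.04.

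Its relative *Doc2a* ran in the opposite direction. *Doc2a* stood at 10.81, 12.36, 7.775, 9.163 and 11.5 CPM in WT hippocampus and at 38.08, 26.59, 32.22, 30.05 and 30.7 CPM in WT neocortex. The miR-324-null values were 12.09, 9.634, 15.43, 12.1 and 7.662 CPM in hippocampus and 38.34, 27.57, 29.5, 32.98 and 26.73 CPM in the neocortex. The tissues did not overlap in either genotype. As a log2 fold change this was -1.62 (SE 0.12, adjusted p = 3.26e-07 in edgeR) in WT and -1.44 (SE 0.16, adjusted p = 4.37e-05) in the miR-324-null samples. With an offset for transcript length the value of *Doc2a* came as close to 0 as -1.08 in WT and -1.12 in the miR-324-null samples, and it was called in both. Set side by side in TPM, *Doc2b* was above *Doc2a* in WT hippocampus (51.9 against 18.3 TPM) and below it in WT neocortex (5.377 against 39.44 TPM).

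*Syt17*, an atypical synaptotagmin without a membrane span, stood at 64.1, 58.55, 91.99, 78.76 and 56.59 CPM in WT hippocampus and at 37.74, 33.68, 38.92, 23.16 and 38.18 CPM in WT neocortex. The null mice had 105.4, 122, 67.11, 75.34 and 89.44 CPM in hippocampus and 40.52, 41.83, 42.62, 52.54 and 23.73 CPM in the neocortex. The tissues were apart in both genotypes, with a log2 fold change of 1.02 (SE 0.15, adjusted p = 0.000146 in edgeR) in WT and 1.19 (SE 0.20, adjusted p = 0.000726) in the miR-324-null samples.

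*Syt6*, a synaptotagmin of low level in both tissues, stood at 4.719, 6.311, 6.142, 5.687 and 9.169 CPM in WT hippocampus and at 22.75, 23.43, 21.83, 21.98 and 19.23 CPM in WT neocortex. In the null mice the values were 12.4, 7.493, 5.803, 5.973 and 6.984 CPM in hippocampus and 21.24, 37.04, 38.88, 21.37 and 26.19 CPM in the neocortex. No sample of one tissue reached the other. On the log2 scale the difference was -1.78 (SE 0.14, adjusted p = 4.00e-07 in edgeR) in WT and -1.91 (SE 0.24, adjusted p = 7.59e-05) in the miR-324-null samples.

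Of the sensors of fast release, *Syt1* was lower in the hippocampus in WT (log2 fold change -0.33, adjusted p = 9.65e-05 in edgeR) and had a value of -0.12 (adjusted p = 0.152) in the miR-324-null samples. *Syt2* was lower in both, with log2 fold changes of -0.89 in WT and -1.43 in the miR-324-null samples. *Syt9* had values of -0.07 and -0.11 and passed in neither. *Syt7*, the slow sensor of asynchronous release and facilitation, was higher in WT hippocampus (0.28, adjusted p = 0.00118 in edgeR) and stood at 0.02 (adjusted p = 0.900) in the miR-324-null samples. *Syt3* was higher in both (0.40 and 0.53), *Syt5*, *Syt12* and *Syt16* were lower in both (between -0.31 and -0.61), and *Syt4* and *Syt13* were lower in WT (-0.44 and -0.28) and did not pass in the miR-324-null samples (-0.18 and -0.09). *Syt10* and *Syt11* passed in neither.

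Of the 8 vesicle proteins, 2 were higher, 3 lower and 3 not called in WT hippocampus, and 3 were higher, 1 lower and 4 not called in miR-324-null hippocampus. *Syn2*, a synapsin that tethers vesicles to each other, was higher in the hippocampus in both (log2 fold change 0.61 and 0.75), while *Syn1* was lower in WT (-0.25) and at -0.02 in the miR-324-null samples. *Synpr* (synaptoporin, a relative of synaptophysin known from the mossy fibre terminals of dentate granule cells) was higher in both, at 0.80 (SE 0.09) and 0.43 (SE 0.10). With an offset for transcript length the call of *Synpr* in the miR-324-null samples was lost, at 0.31 (adjusted p = 0.139 in edgeR) and 0.30 (adjusted p = 0.123 in DESeq2). *Syp* itself passed in the miR-324-null samples alone, at 0.24 (adjusted p = 0.0244 in edgeR) against 0.03 in WT, and the difference between these values was not called in the test of the interaction.

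The SV2 proteins are membrane glycoproteins of the vesicle. *Sv2a* and *Sv2b* were lower in WT hippocampus (-0.24 and -0.25) and did not pass in the miR-324-null samples (-0.13 and 0.01). *Sv2c*, which is known from the basal ganglia, stood between 21.63 and 44.11 CPM in WT hippocampus and between 32.62 and 52.24 CPM in WT neocortex. In miR-324-null samples it stood between 20.23 and 34.05 CPM in the hippocampus and between 46.62 and 78.3 CPM in the neocortex. The tissues overlapped in WT (log2 fold change -0.27, adjusted p = 0.340 in edgeR) and were apart in the miR-324-null samples (-1.14, adjusted p = 0.000319). The difference between the 2 values was -0.88 (SE 0.29, adjusted p = 0.800 in edgeR's interaction test), which was not called.

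In the SNARE machinery 2 genes were higher, 5 lower and 2 not called in the hippocampus, with the same counts in WT and in the miR-324-null samples. *Stx1a*, syntaxin-1A of the plasma membrane, stood at 143, 102.7, 83.37, 98.74 and 118.1 CPM in WT hippocampus and at 311.5, 309.7, 283.2, 303.7 and 309.6 CPM in WT neocortex. In miR-324-null samples it stood at 113.8, 113.2, 113, 115.7 and 92.49 CPM in hippocampus and at 248.1, 233.9, 253.9, 267.7 and 301.8 CPM in the neocortex. The tissues were far apart in both genotypes, and the WT neocortex samples were the most even. The log2 fold change was -1.49 (SE 0.11, adjusted p = 3.33e-07 in edgeR) in WT and -1.25 (SE 0.08, adjusted p = 1.11e-06) in the miR-324-null samples.

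*Snap25* was lower in the hippocampus in both genotypes, from 1926 to 2167 CPM in WT hippocampus against 3035 to 3561 CPM in WT neocortex. In miR-324-null samples it ran from 2088 to 2382 CPM in the hippocampus and from 2560 to 3400 CPM in the neocortex. The groups did not overlap, and the log2 fold change was -0.69 (SE 0.05) in WT and -0.36 (SE 0.07) in the miR-324-null samples. *Vamp1*, the vesicular SNARE protein known from fast-firing neurons, was lower in both (-0.55 and -0.45), whereas *Vamp2* passed in neither (-0.06 and 0.06).

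*Cplx3*, a complexin known from retinal ribbon synapses and the deepest neocortical layer, stood at 11.93, 11.97, 3.789, 6.477 and 7.966 CPM in WT hippocampus and at 22.14, 18.99, 16.7, 22.33 and 15.52 CPM in WT neocortex. The miR-324-null values were 6.51, 5.581, 11.73, 9.707 and 4.34 CPM in hippocampus and 17.18, 17.09, 19.53, 19.67 and 21.28 CPM in the neocortex. The hippocampus samples were spread over more than a doubling but stayed under those of the neocortex. As a log2 fold change this was -1.19 (SE 0.24, adjusted p = 0.00152 in edgeR) in WT and -1.31 (SE 0.21, adjusted p = 0.000602) in the miR-324-null samples.

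*Cplx1* was lower in both (-0.44 and -0.28) and *Cplx2* higher in both (0.22 and 0.26), so the 3 complexins did not run together. The WT call of *Cplx2* was kept in 2 of the 10 fits that left out 1 sample. *Nsf*, the ATPase that takes spent SNARE complexes apart, was higher in both (0.40 and 0.46), and *Napb*, one of its adaptors, passed in neither.

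The Rab3 genes, which guide vesicles to the active zone, differed by little. In WT samples *Rab3c* was higher (0.34) and *Rab3b* lower (-0.22) in the hippocampus and *Rab3a* was not called (-0.12). In miR-324-null samples none of the 3 was called in edgeR, and 1 of them (*Rab3c*, at 0.29) had an unadjusted p of at most 0.05 and was called by DESeq2.

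The active zone was the role that leaned furthest to one side. In WT samples 7 of its 9 genes were lower, 1 was higher and 1 was not called, and in the miR-324-null samples 8 were lower and 1 higher. *Rims3*, a short RIM that carries the last C2 domain of the family and none of the domains for Rab3 and Munc13, fell furthest. It lies on chromosome 4 of GRCm38, from 120854816 to 120896579. *Rims3* stood at 73.8, 106.3, 55.27, 86.5 and 111.5 CPM in WT hippocampus and at 435.1, 378, 351.1, 398 and 364.8 CPM in WT neocortex. The null mice had 66.03, 53.06, 108, 100.8 and 60.89 CPM in hippocampus and 261.1, 294.1, 293.3, 315.8 and 445 CPM in the neocortex. Every neocortex sample was more than double every hippocampus sample of its genotype. On the log2 scale the difference was -2.16 (SE 0.16, adjusted p = 2.40e-07 in edgeR) in WT, or 4.48-fold lower in the hippocampus, and -2.04 (SE 0.21, adjusted p = 1.69e-05) in the miR-324-null samples, or 4.12-fold lower.

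The long RIM genes *Rims1* and *Rims2*, which tether vesicles and calcium channels, were lower by less (-0.66 and -0.79 in WT, -0.58 and -0.73 in the miR-324-null samples). The priming factors *Unc13a* and *Unc13b* (Munc13-1 and Munc13-2) lay between -0.28 and -0.36 and the scaffolds *Bsn* (bassoon) and *Pclo* (piccolo) between -0.19 and -0.26, all called in both. With an offset for transcript length in edgeR these calls in the miR-324-null samples were lost for *Bsn* (-0.07, adjusted p = 0.562), *Pclo* (-0.12, adjusted p = 0.203) and *Unc13b* (-0.17, adjusted p = 0.359). In WT the same offset ended the calls of *Pclo* (-0.17, adjusted p = 0.0532) and *Unc13b* (-0.27, adjusted p = 0.150). The call of *Unc13b* in WT was kept in 5 and that of *Pclo* in the miR-324-null samples in 4 of the 10 fits that left out 1 sample. *Erc2*, the ELKS-family scaffold also called CAST, was the 1 active zone gene that was higher in the hippocampus, at 0.52 in WT and 0.42 in the miR-324-null samples. *Unc13c* (Munc13-3, best known from the cerebellum) was at 0.00 in WT and at -0.78 (SE 0.24, adjusted p = 0.0280 in edgeR) in the miR-324-null samples, a call kept in 4 of those 10 fits.

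In endocytosis *Synj1* (synaptojanin-1, a lipid phosphatase that uncoats vesicles) and *Amph* (amphiphysin, which brings dynamin to the vesicle neck) were higher in both genotypes, by 0.31 and 0.24 in WT and by 0.30 and 0.29 in the miR-324-null samples. *Dnm1* passed in neither. Over all roles, the other calls that a fit without 1 sample lost were those of *Rab3b* (kept in 7 of 10, and at -0.15 without WT hippocampus replicate 3) and *Bsn* (9 of 10) in WT and of *Syp* (6 of 10) and *Cplx1* (8 of 10) in the miR-324-null samples.

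**Figure D3:**
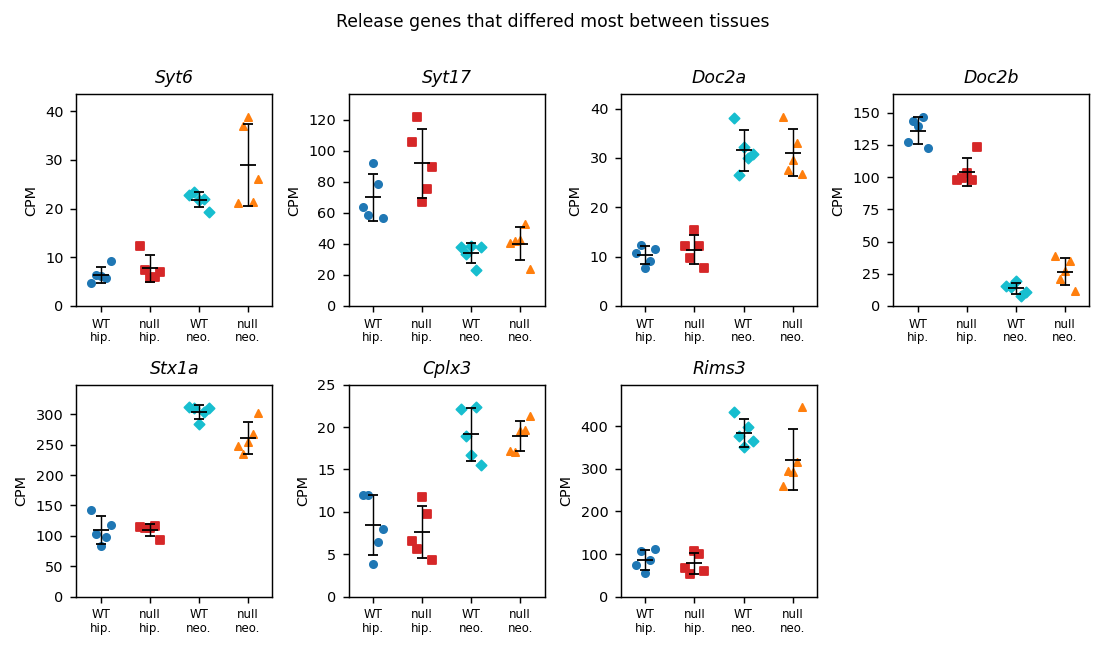
CPM in each sample for the 7 genes called with a log2 fold change of at least 1 in size in both genotypes, with the mean and SD of 5 samples per group. *Syt17* and *Doc2b* are higher in the hippocampus and the other 5 are lower, with no overlap between tissues within a genotype.

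In all, 7 of the 48 genes (14.6%) were called with a log2 fold change of at least 1 in size in WT samples, against 5.76% of all genes, and 9 (18.8%) in the miR-324-null samples, against 5% of all genes. The 9 were the same 7 with *Syt2* and *Sv2c*. For comparison, a further list of 56 genes of vesicle release, of which 54 were tested, had 12 higher, 15 lower and 27 not called in WT hippocampus (median 0.00) and 8 higher, 8 lower and 38 not called in miR-324-null hippocampus (median 0.02).

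The tissue labels were checked with marker genes. Of 10 genes of the hippocampal fields all 10 were higher in the hippocampus in WT and 9 in the miR-324-null samples, and of 10 genes of the neocortical layers 7 were lower and 1 higher in each. The pan-neuronal genes summed to between 3022 and 3331 TPM in WT hippocampus and between 3145 and 3465 TPM in WT neocortex, and their library size in place of TMM left 32 of the 48 genes called in WT, against 37.8% of all genes. The WT calls this lost were those of *Sv2b* (-0.17), *Rab3b* (-0.14), *Unc13b* (-0.20), *Bsn* (-0.17) and *Pclo* (-0.11). Genes of the choroid plexus summed to 6941 TPM in WT hippocampus replicate 3, 5998 TPM in miR-324-null hippocampus replicate 5 and 1285 TPM in miR-324-null neocortex replicate 2, and to at most 180.1 TPM elsewhere. Without WT hippocampus replicate 3, 34 of the 48 genes were called between tissues in WT, against 32.2% of all genes. Without miR-324-null hippocampus replicate 5 and miR-324-null neocortex replicate 2, 27 were called in the miR-324-null samples, against 21%.

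Markers of other cell types moved in the same comparison. Of 8 interneuron genes 6 were lower and none higher in WT hippocampus, with a summed level between 744.1 and 1006 TPM against 923 to 985.3 TPM in WT neocortex. In the miR-324-null samples 5 of the 8 were lower, with sums between 744.3 and 1143 TPM in hippocampus and between 1002 and 1096 TPM in the neocortex. Of 6 astrocyte genes 4 were higher and 1 lower in WT hippocampus, with sums between 766.8 and 956 TPM against 617.3 to 648.4 TPM in WT neocortex. In the miR-324-null samples 1 was higher and 1 lower, with sums between 801.4 and 920.9 TPM in hippocampus and between 554.8 and 797 TPM in the neocortex. The astrocyte sums of the tissues were thus apart in both genotypes, and those of the interneuron genes overlapped. Single genes weighed heavily in these sums. *Gfap* had the widest astrocyte gap, with means, hippocampus first, of 277.9 against 74.26 TPM in WT and 257 against 81.32 TPM in miR-324-null samples. The mean of *Aldh1l1* was lower in the hippocampus in both genotypes, as was that of *S100b* in the miR-324-null samples. *Sst* was the highest interneuron gene, at 477 against 486.8 TPM in WT and 622.7 against 509.3 TPM in miR-324-null samples. Of 8 striatal genes 3 were lower in the hippocampus in WT and all 8 in the miR-324-null samples. Of 6 microglial genes 1 was higher in WT hippocampus, and no oligodendrocyte or endothelial gene was called in either genotype. The part of these cell types in the values of the release genes was not tested.

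The second comparison is the one the study was made for, miR-324-null against WT within each tissue. In the hippocampus none of the 48 genes was called by edgeR, where 17 of 14796 genes (0.115%) were called in all. At an unadjusted p of at most 0.05 there were 9 of the 48 (7 higher and 2 lower in the null mice), or 18.8%, against 11.1% of all genes. The genotypes overlapped in CPM in all 48, where 2.47% of all genes had groups apart. DESeq2 called 3 (*Syt7*, *Doc2b* and *Sv2b*), among 138 genes in all (0.933%). The log2 fold changes, miR-324-null over WT, ran from -0.68 (*Syt2*) to 0.40 (*Syt17*) with a median of 0.05.

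The smallest p in the hippocampus was that of *Doc2b*, with the values in each sample given above. All WT samples but the lowest, at 122.7 CPM, were above all miR-324-null samples, and the highest of these was replicate 5, at 123.3 CPM. The log2 fold change was -0.38 (SE 0.07, adjusted p = 0.0911 in edgeR). Replicate 5 is the library with the high choroid plexus genes, and without it *Doc2b* was called, at -0.44. It was also called, at -0.44, when the WT hippocampus library high in these genes was left out too. *Doc2b* was also called in DESeq2, at -0.38.

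*Syt7* stood at 455.6, 449.3, 394.8, 443.9 and 403.2 CPM in WT hippocampus and at 299, 328.2, 397.5, 367.7 and 332.5 CPM in miR-324-null hippocampus. Replicate 3 of each genotype made the groups overlap, and the other miR-324-null samples were below all WT samples. As a log2 fold change this was -0.31 (SE 0.08, adjusted p = 0.187 in edgeR). *Sv2b* stood at 434.4, 361.2, 389, 429.1 and 360.8 CPM in WT hippocampus and at 455.1, 520.2, 458.5, 481.1 and 431.4 CPM in miR-324-null hippocampus. The groups overlapped by 1 miR-324-null sample, and the log2 fold change was 0.25 (SE 0.07, adjusted p = 0.265 in edgeR). The same genes in the neocortex stood at -0.03 (*Syt7*) and 0.00 (*Sv2b*).

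In the neocortex none of the 48 genes was called by edgeR either, where 47 of 14930 genes (0.315%) were called in all. At an unadjusted p of at most 0.05 there were 16 of the 48 (10 higher and 6 lower), or 33.3%, against 12.2% of all genes, and DESeq2 called 2 (*Synpr* and *Stx1a*), among 240 genes in all (1.61%). The log2 fold changes ran from -0.26 (*Rims3*) to 0.96 (*Doc2b*) with a median of -0.01. In 2 of the 48 genes (*Synpr* and *Erc2*, both higher in the miR-324-null samples) the groups did not overlap, against 2.24% of all genes.

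*Synpr* stood at 60.97, 78.69, 68.97, 56 and 63.93 CPM in WT neocortex and at 92.49, 94.95, 79.25, 93.63 and 82.28 CPM in miR-324-null neocortex. All miR-324-null samples were above all WT samples, the closest pair by less than 1 CPM. On the log2 scale the difference was 0.43 (SE 0.09, adjusted p = 0.0618 in edgeR), and with the offset for transcript length it was 0.57 and called. *Synpr* was also called without WT neocortex replicate 2, at 0.50, and without miR-324-null neocortex replicate 5, at 0.46. In the hippocampus the value of *Synpr* was 0.05.

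*Stx1a* was lower in the miR-324-null neocortex in replicates 1 to 4, with replicate 5 within the WT range, and its log2 fold change was -0.21 (SE 0.06, adjusted p = 0.174 in edgeR). *Doc2b* was above all WT samples in replicates 1 to 4 and again within the WT range in replicate 5, at a log2 fold change of 0.96 (SE 0.29, adjusted p = 0.219). *Doc2b* thus had opposite signs in the tissues. The difference between them, which is also the difference of its tissue contrast between genotypes, was -1.33 (SE 0.31, adjusted p = 0.454 in edgeR's interaction test with 20 samples) and was not called. None of the 48 genes was called for this interaction, where 3 of 15391 genes (0.0195%) were. At an unadjusted p of at most 0.05 there were 11 of the 48, or 22.9%, against 5.57% of all genes, and DESeq2 also called none.

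**Figure D4:**
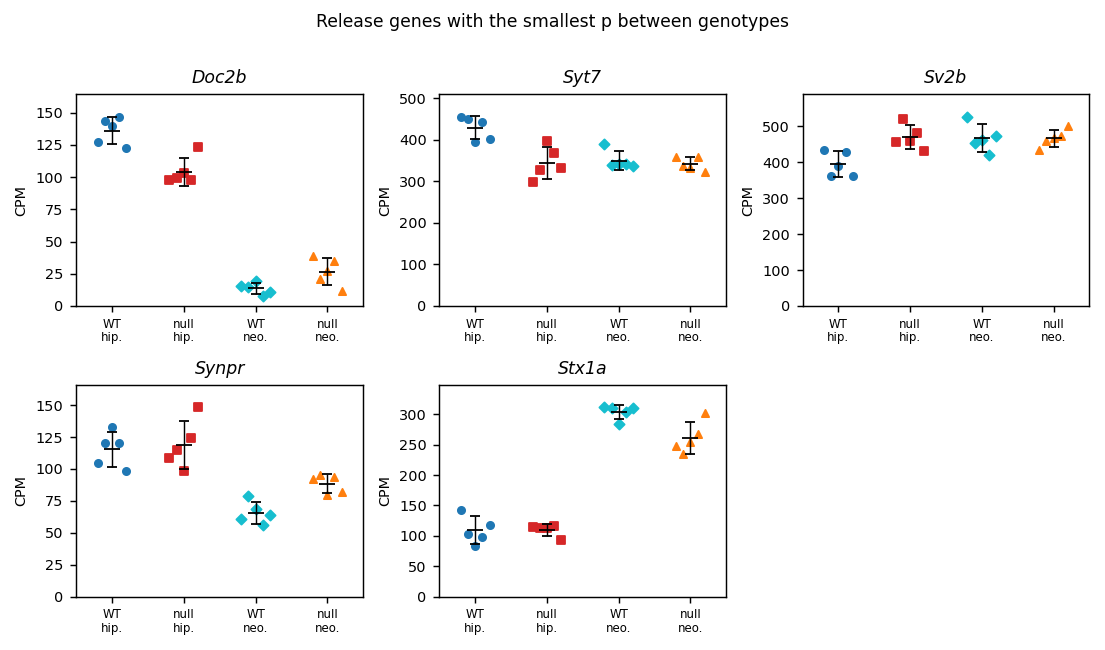
CPM in each sample, with the mean and SD of 5 samples per group, for the genes with the 3 smallest p values between genotypes in the hippocampus (*Doc2b*, *Syt7*, *Sv2b*) and in the neocortex (*Synpr*, *Stx1a*, *Doc2b*). No gene passed an adjusted p of 0.05 in edgeR, and in the neocortex the groups of *Synpr* are the only ones of these that do not overlap.

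Replicate 5 of the miR-324-null neocortex decided the count in this tissue. Without it 8 of the 48 genes were called, among 566 genes in all (3.76%). They are named for this count, after their values were seen. *Doc2b* (1.15), *Unc13c* (0.83), *Synpr* (0.46) and *Rab3c* (0.39) were higher in the remaining miR-324-null samples, and *Rims3* (-0.40), *Syt13* (-0.27), *Stx1a* (-0.27) and *Snap25* (-0.26) were lower, as log2 fold changes. Of the 8, *Doc2b*, *Synpr* and *Rab3c* were higher in WT hippocampus than in WT neocortex, *Rims3*, *Syt13*, *Stx1a* and *Snap25* were lower there, and *Unc13c* was not called. The comparison of genotypes and that of tissues share the WT neocortex samples. Equal signs are thus favoured in advance, and no conclusion is drawn from them. For *Synpr* this holds for the gene as a whole, and the shares of its transcripts, given below, moved away from those of the hippocampus. *Doc2b* was then also called for the interaction, at -1.52, among 20 genes in all (0.129%).

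The markers of other regions moved with these values. Genes of the hippocampal fields summed to between 40.12 and 57.91 TPM in WT neocortex, to between 83.26 and 115.8 TPM in replicates 1 to 4 of the miR-324-null neocortex, and to 44.37 TPM in replicate 5. *Wfs1* had the highest mean of these genes there, at 35.76 TPM in WT and 55.03 TPM in miR-324-null neocortex. In the hippocampus its means were 68.26 and 58.78 TPM, so it set the tissues little apart in the miR-324-null samples. The means of all the other field genes were also higher in the miR-324-null than in the WT neocortex. The covariate fitted below is the log2 of the field gene sum. Genes of the striatum, which lies under the neocortex, summed to between 182.4 and 465.9 TPM in WT neocortex, to between 355 and 924.8 TPM in replicates 1 to 4 and to 306.6 TPM in replicate 5. Genes of the neocortical layers summed to between 805.2 and 888.4 TPM in WT neocortex, to between 689.8 and 799.7 TPM in replicates 1 to 4, and to 945.6 TPM in replicate 5. *Lamp5* and *Lmo4* had the highest means of these genes, at 314.1 and 300.1 TPM in WT neocortex. *Bcl11b* went the other way, with means of 11.87 TPM in WT and 15.54 TPM in miR-324-null neocortex. *Tshz2* was nearly level, at 21.36 and 21.98 TPM, and the means of the other layer genes were lower in the miR-324-null neocortex.

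By these sums, replicates 1 to 4 were above all WT neocortex samples in the hippocampal field genes and below all of them in the layer genes. Replicate 5 was not. All 8 striatal genes and all 6 of the hippocampal field genes that were tested had a positive log2 fold change in the miR-324-null neocortex, with medians of 1.05 and 0.88, and none was called. For comparison, the summed level of the hippocampal field genes in WT hippocampus was between 267.9 and 351.2 TPM.

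With the level of the hippocampal field genes as a covariate, a fit added after the data were seen, the log2 fold change in the neocortex was -0.04 for *Doc2b*, 0.10 for *Unc13c*, 0.04 for *Rab3c*, 0.02 for *Rims3*, -0.02 for *Snap25*, -0.01 for *Syt13*, -0.11 for *Stx1a* and 0.32 for *Synpr*. With the striatal genes as the covariate it was 0.44 for *Doc2b*, 0.33 for *Unc13c*, 0.30 for *Rab3c*, -0.09 for *Rims3*, -0.22 for *Snap25*, -0.12 for *Syt13*, -0.18 for *Stx1a* and 0.33 for *Synpr*. None of the 48 genes was called in either fit. The covariate and the genotype overlap in these samples and cannot be told apart, and the same libraries stand behind the tissue comparison in the miR-324-null samples.

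**Figure D5:**
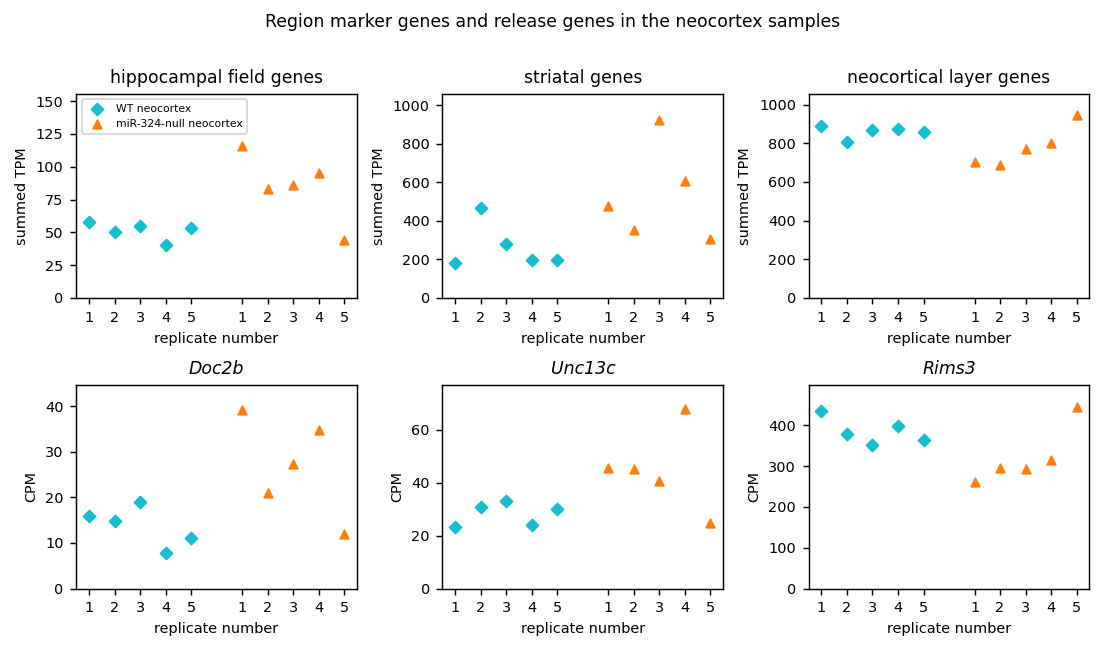
Summed TPM of the marker genes of the hippocampal fields, the striatum and the neocortical layers, and CPM of *Doc2b*, *Unc13c* and *Rims3*, in each neocortex sample by replicate number. Replicates 1 to 4 of the miR-324-null neocortex stand above WT in the hippocampal field genes, *Doc2b* and *Unc13c* and below WT in the layer genes and *Rims3*, and replicate 5 lies within the WT range of all of them except the layer genes and *Rims3*, where it is the highest sample.

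The genes with a match to the seeds are described here by their medians, with no test. The 7 genes with a miR-324-5p match had a median log2 fold change, miR-324-null over WT, of -0.07 in hippocampus and -0.04 in neocortex, and the 41 without had 0.05 and 0.00. The 15 genes with a miR-324-3p match had medians of -0.00 and -0.03, and the 33 without had 0.06 and -0.00. Of the genes whose sites are printed above, *Rims3* stood at -0.15 in the hippocampus (SE 0.22, adjusted p = 0.846 in edgeR) and -0.26 in the neocortex (SE 0.11, adjusted p = 0.386). The match is followed by an A in 2 genes, of which *Unc13a* stood at -0.12 and -0.03 and *Syt9* at 0.29 and 0.34. *Syt2* stood at -0.68 and -0.13, *Cplx2* at -0.075 and -0.095, *Dnm1* at 0.061 and -0.044 and *Doc2a* at 0.146 and -0.022. None of these was called.

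Of the 48 genes, 3 share chromosome 11 with *Mir324*. *Vamp2* lies 0.920 Mb from it, *Doc2b* 5.76 Mb and *Nsf* 33.8 Mb. The log2 fold changes between genotypes in the hippocampus and the neocortex were -0.02 and -0.13 for *Vamp2*, -0.38 and 0.96 for *Doc2b*, and 0.15 and 0.10 for *Nsf*.

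The 48 genes have 276 transcripts in the files. In 39 of the genes 1 transcript held at least 50% of the TPM as a mean over the 20 samples, and in 13 it held at least 95%. In 5 genes (*Syt16*, *Syn2*, *Syt6*, *Amph* and *Doc2a*) the leading transcript is annotated as a target of nonsense-mediated decay or as a processed transcript and not as protein coding, with 89.8% of the TPM in *Syt16* and 75% in *Syn2*, so the values of these genes are only in part those of mRNAs annotated to code for the protein. Between tissues, 41 of 148 transcripts tested were called in WT (14 higher and 27 lower in the hippocampus), against 10.1% of all transcripts, and 31 of 159 in the miR-324-null samples (9 higher and 22 lower), against 6.73%. No gene of the 48 had transcripts called in opposite directions in both. Between genotypes edgeR called none of 149 in the hippocampus and none of 156 in the neocortex, where 0.0291% and 0.0249% of all transcripts were called.

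One transcript, named after its values were seen, changed its share of the gene between tissues. Synpr-202 held 0.0% to 4.7% of the TPM of *Synpr* in WT hippocampus and 9.9% to 32.6% in WT neocortex, and 0.4% to 6.2% in miR-324-null hippocampus and 31.8% to 46.6% in miR-324-null neocortex. The tissues did not overlap in either genotype, while the leading transcript of the hippocampus, Synpr-201, was higher there in both, at a log2 fold change of 1.23 and 1.58. Synpr-202 had a log2 fold change, hippocampus over neocortex, of -2.62 (adjusted p = 0.0843 in edgeR over all transcripts) in WT and -3.72 (adjusted p = 0.00254) in the miR-324-null samples, opposite in sign to the gene as a whole. The share of reads between such overlapping transcripts is an estimate, and its error is not in these values.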

How the data were processed

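RNA-seq of 20 samples was used, 5 for each genotype and tissue, grouped by the submitters' labels. The libraries were stranded mRNA. The authors deposited, per transcript and sample, the estimated counts and the TPM given by kallisto. The study's methods name a GRCm38 transcriptome, the submitters' processing notes name GRCh38, and whether kallisto used strand is not given in the sources used here. Of 115270 transcripts, 113580 were matched to GENCODE M21 (GRCm38), and the 1690 others, with at most 0.556% of the counts of a sample, were left out. Estimated counts were summed per gene and rounded. Their totals ran from 12752439 to 19617765 per sample, which sets the counting error of the low genes.

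Tests used edgeR 4.0.16 (limma 3.58.1, R 4.3.3): default filter on low counts, TMM, quasi-likelihood test, Benjamini-Hochberg adjustment over all genes, calls at an adjusted p of at most 0.05. Each comparison was fitted on its 10 samples and the interaction on all 20. CPM are TMM-normalized over all 20 samples, and non-overlap was read from them. Standard errors are those of the fitted log2 fold changes. The labels number the samples of each group 1 to 5, and p-values measure the spread between these samples. DESeq2 1.42.0 and the other alternatives are in the closing section. Per-sample values were given for genes called with a log2 fold change of at least 1 in size in both tissue comparisons and for the 3 smallest p in each genotype comparison. The genes, marker lists and this rule were chosen with earlier results of these data known. Seed matches were searched in the annotated 3′UTRs of transcripts annotated as protein coding, on the strand of the transcript.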

Additional observations from a re-analysis of the deposited data

Results flagged for a closer look

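In 7 of 192 combinations of gene and group (3.65%) 1 sample lay far from the other 4 of its group in TPM, by Dixon's test at its 95% limit, and chance alone marks about 1 in 20. *Syt1* stood at 575.7 TPM in WT hippocampus replicate 4, above the next sample at 513.5 TPM. *Snap25* stood at 1635 TPM in WT hippocampus replicate 3, below the next at 1764 TPM. That sample is the one highest in choroid plexus genes. *Syt6* was marked in 2 groups, high at 5.122 TPM in miR-324-null hippocampus replicate 1 (next 2.736 TPM) and low at 7.224 TPM in WT neocortex replicate 5 (next 9.04 TPM). *Rab3b* stood at 54.71 TPM in miR-324-null hippocampus replicate 5, below the next at 87.88 TPM, and that sample is also high in choroid plexus genes. In miR-324-null neocortex replicate 3, *Sv2a* stood at 341.8 TPM (next 317.8 TPM) and *Sv2c* at 15.19 TPM (next 10.33 TPM), and that sample has the highest summed level of striatal genes, at 924.8 TPM. The part of these marker genes in the values was not tested.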

How the results depend on the processing

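Counts of the 48 genes called between tissues moved little. Over the other fits with all samples they were 32 to 38 in WT and 27 to 35 in miR-324-null samples, and with 1 sample left out 34 to 38 and 28 to 32. No gene called between tissues changed direction under any of these fits. The labels do not say whether same-numbered samples of the tissues are from 1 mouse. Their deviations from the group means had r between -0.137 and 0.11 in WT and between -0.00519 and 0.29 in miR-324-null samples, where 4 of 5 pairs were over 0.1, and not every sample correlated best with its own number in either genotype, so the pairing was not used in the reported fits. With the replicate number as a block 36 and 32 genes were called between tissues, and none between genotypes or for the interaction. Between genotypes in the hippocampus the count rose from 0 to 3 with DESeq2. It rose to 1 with the length offset and DESeq2, with all 20 samples in one fit and without the hippocampus libraries high in choroid plexus genes. With 1 sample left out it was 0 to 1. In the neocortex it rose to 2 with DESeq2 and to 1 with no filter, with the length offset in edgeR and with that offset and DESeq2, and with 1 sample left out it was 0 to 8. For the interaction it was 0 to 1 with 1 sample left out. With the level of hippocampal field genes as a covariate the neocortical value of *Doc2b* turned to -0.038. The 3 fits with marker genes or without choroid plexus libraries were chosen after seeing the data. The causes were not tested. Near-identical transcripts and low counts, as in *Syt10*, limit precision.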
